A study of Mus musculus with 6 samples.

Results

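GABA-A receptors are chloride channels that GABA, the main inhibitory transmitter of the brain, opens at synapses and outside them. Each receptor is assembled from several subunits, most often of the alpha, beta and gamma or delta classes. GABA binds where an alpha subunit meets a beta subunit, and benzodiazepines bind where an alpha subunit meets a gamma subunit. The genes examined here were 7 of these subunits, Gabra2, Gabra3, Gabra4, Gabra5, Gabrb1, Gabrb2 and Gabrg1, chosen by name as subunits typical of the forebrain. Each had 1 probe among 24048 probes on the array, and the array named 14776 genes in all.

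The mice were males of BALB/c, an albino inbred strain, and all ate a normal diet. In 3 mice the drinking fluid was oil palm phenolics (OPP), a water-soluble extract of oil palm fruit, at 1500 ppm gallic acid equivalent for 6 weeks, and 3 control mice drank distilled water. All were 12 weeks old, and the methods do not say whether a whole brain was extracted. RNA of each brain was read on an Illumina MouseRef-8 BeadChip, where the brightness of a bead-bound probe, its intensity, measures the transcript. The comparison asked which transcripts differed in brain after OPP.

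A probe was called above background in a brain when its detection level, set against the negative control beads, was over 0.99. By that call 7636 to 7903 probes were above background in OPP brains and 7442 to 7614 in control brains. General neuron markers averaged 10.81 to 10.97 in OPP brains and 10.91 to 10.96 in control brains on the log2 scale, and 10 of the 13 such genes with a probe passed the filter for testing. Control brain 2 stood apart, correlating at 0.974 and 0.973 with control brains 1 and 3, which correlated at 0.987. Granulocyte markers averaged 8.09 to 8.28 in OPP brains, against 12.06 in control brain 2 and 9.04 and 9.34 in the other control brains. These OPP averages include readings not above background. S100a8 was above background in 3 OPP brains, Lcn2 in 2, S100a9 and Camp in 1 each and Ltf in 0, while each was in all 3 control brains.

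Of the 7 subunits, 2 were above background in all 6 brains, 4 were above background in none, and 1 was above background in some OPP brains only. In both subunits that could be tested, Gabra3 and Gabrb1, the intensities of OPP and control brains overlapped, and neither passed a test. The subunit genes lie in clusters in the mouse genome. Gabrg1, Gabra2, Gabra4 and Gabrb1 follow each other in that order on chromosome 5, Gabra5 lies on chromosome 7, Gabrb2 on chromosome 11 and Gabra3 on the X chromosome. The promoters of Gabra3, Gabrb1 and Gabra4 are printed here because they set the 2 measured subunits beside the nearest cluster neighbour that was not above background. Each is a RefSeq window on GRCm38.p6 holding 250 bases before and 50 bases after the start of transcription, read 5′ to 3′ on the gene's strand, with CG dinucleotides in capitals.
Gabra3, chrX:72656870-72657169, minus strand: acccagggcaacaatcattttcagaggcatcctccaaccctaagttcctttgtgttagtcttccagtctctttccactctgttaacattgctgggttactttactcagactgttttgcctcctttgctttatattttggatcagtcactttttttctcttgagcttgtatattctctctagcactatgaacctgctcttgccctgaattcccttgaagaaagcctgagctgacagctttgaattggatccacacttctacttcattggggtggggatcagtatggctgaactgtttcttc
Gabrb1, chr5:71657671-71657970, plus strand: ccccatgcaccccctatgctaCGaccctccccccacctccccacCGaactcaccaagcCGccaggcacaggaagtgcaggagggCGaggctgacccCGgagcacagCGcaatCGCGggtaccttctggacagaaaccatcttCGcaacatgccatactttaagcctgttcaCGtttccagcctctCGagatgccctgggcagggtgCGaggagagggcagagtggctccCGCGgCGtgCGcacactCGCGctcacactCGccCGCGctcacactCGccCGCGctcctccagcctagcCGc
Gabra4, chr5:71658259-71658558, minus strand: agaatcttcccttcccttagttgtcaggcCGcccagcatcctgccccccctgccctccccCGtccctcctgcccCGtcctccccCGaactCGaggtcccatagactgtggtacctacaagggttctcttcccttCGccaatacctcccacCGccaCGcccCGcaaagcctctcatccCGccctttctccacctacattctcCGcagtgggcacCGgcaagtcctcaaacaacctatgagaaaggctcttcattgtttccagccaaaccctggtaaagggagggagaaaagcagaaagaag

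The Gabra3 window held 0 CG dinucleotides, as did 5.43% of the 32851 promoter windows in the RefSeq table, and its GC content was 43%. The Gabrb1 window held 25 CG dinucleotides and 66% GC, and the Gabra4 window held 12 and 58.7%, against medians of 7 and 52.7% over all windows. The annotated starts of Gabrb1 and Gabra4 lie 387 bases apart on opposite strands. Gabrb1, on the plus strand, starts at the lower coordinate, so each gene is read toward the start of the other, not away from it. A second Gabra3 window, which overlaps the first, also held 0, and a second Gabrb1 window held 9. The Gabra2 window held 25, that of Gabra5 13, those of Gabrb2 between 9 and 11, and that of Gabrg1 held 3. The 2 measured subunits thus had the lowest count among the 11 windows and, level with Gabra2, the highest. These counts describe the sequence and were not set against expression in a test.

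Gabra3 encodes the alpha3 subunit, found in cortex, in the reticular nucleus of the thalamus and in monoamine neurons. Its scaled intensity was 381, 406 and 459 in OPP brains 1, 2 and 3, against 317, 310 and 454 in control brains 1, 2 and 3. The groups overlapped, since control brain 3 read nearly as high as the brightest OPP brain while the other control brains lay below every OPP brain. The means were 415 ± 40.0 in OPP brains and 360 ± 81.5 in control brains (SD, n = 3 each). The log2 fold change was 0.22 with a standard error of 0.158 and a 95% interval of −0.135 to 0.581. By limma's moderated test the adjusted p was 0.988 over 7611 probes, with an unadjusted p of 0.192. A two-sided exact permutation test of the single probe gave p = 0.3, where 0.1 is the smallest that 3 against 3 brains allow. Among all tested probes, 10.8% had a larger fold change in either direction.

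The value for Gabra3 depended on control brain 3. Without it the log2 fold change was 0.40 with an unadjusted p of 0.0143 and an adjusted p of 0.976 by limma, and without the outlying control brain 2 it was 0.13. It was 0.05 when limma weighted the arrays by their quality. On the values processed by the authors, from which a background of 174 to 209 per array had been subtracted, it was 0.47. The main intensities, 310 to 459 for Gabra3, keep that background, which makes fold changes smaller.

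Gabrb1 encodes the beta1 subunit, which supplies one side of the GABA binding site. Its scaled intensity was 898, 1027 and 1147 in OPP brains 1, 2 and 3, against 964, 1077 and 905 in control brains 1, 2 and 3. The groups overlapped across nearly their whole range. The means were 1024 ± 125 in OPP brains and 982 ± 87.5 in control brains (SD, n = 3 each). The log2 fold change was 0.06 with a standard error of 0.123, a 95% interval of −0.220 to 0.335 and an adjusted p of 0.996 by limma. The exact permutation p was 0.8, and 65.0% of tested probes had a larger fold change. The direction was not stable, since the log2 fold change was −0.03 without OPP brain 3 and −0.0016 without control brain 3.

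**Figure D1:**
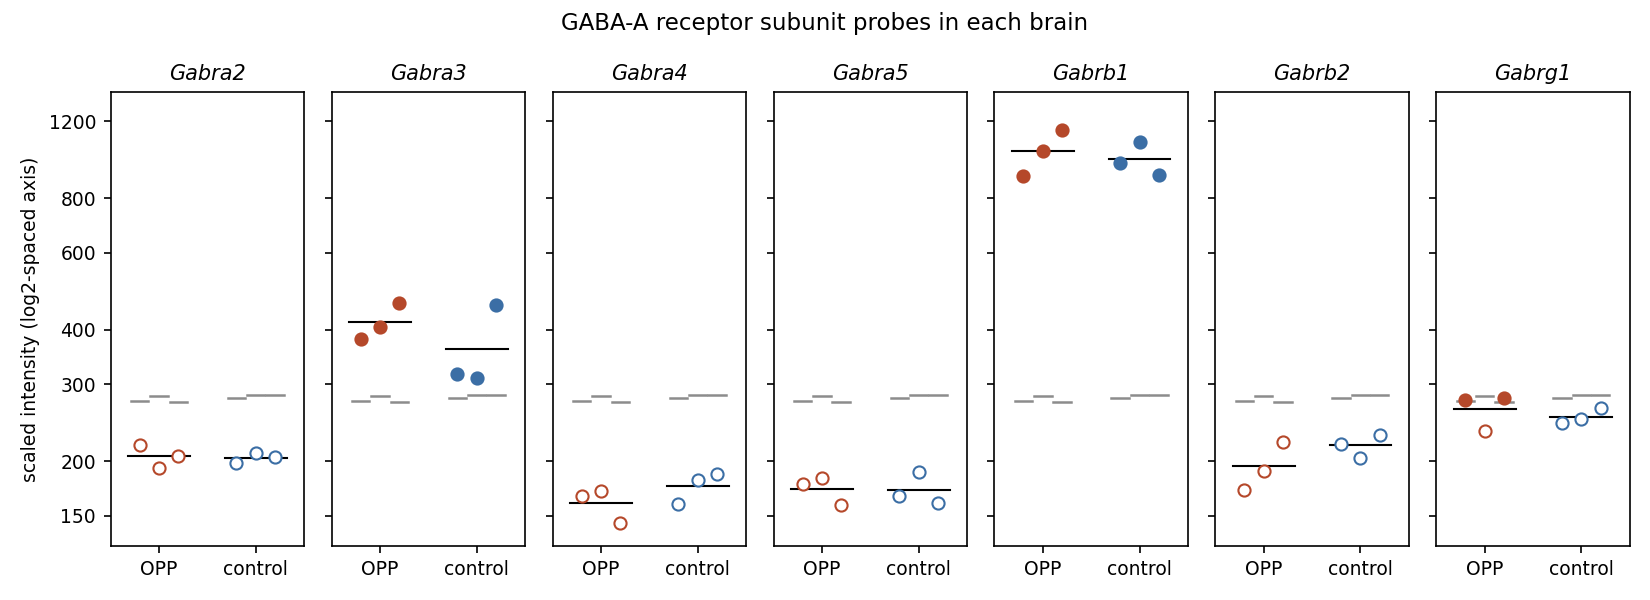
Scaled intensity of each subunit probe in each brain on a log2-spaced axis, with 1 panel per gene and OPP left of control. Filled points were above background, open points were not, black lines are group means and grey ticks mark the lowest scaled intensity above background on that array. Gabra3 and Gabrb1 are filled in all 6 brains, and Gabrg1 in OPP brains 1 and 3.

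Gabrg1 encodes the gamma1 subunit, whose receptors respond weakly to classical benzodiazepines. Its scaled intensity was 276, 235 and 279 in OPP brains 1, 2 and 3, against 244, 250 and 265 in control brains 1, 2 and 3. The probe was above background in OPP brains 1 and 3 and in 0 control brains, and OPP brain 2 was the dimmest of the 6. Group means were 263 ± 25.0 in OPP brains and 253 ± 10.7 in control brains (SD, n = 3 each). The control brains give only a bound, and the mean of the OPP brains lay below it. OPP brain 2 was not above background either, so no fold change is given. The probe did not pass the filter for testing, which asked for a mean detection level over 0.99 in a group.

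The other 4 subunits were not above background in any brain, and their probes give neither a fold change nor an order. Gabra2 encodes the alpha2 subunit, enriched at the axon initial segment, and its probe read 193 to 218 in OPP brains and 198 to 209 in control brains. Gabra4 encodes the alpha4 subunit, which pairs with delta in receptors outside synapses, and its probe read 145 to 171 in OPP brains and 159 to 187 in control brains. The alpha5 subunit is best known from the hippocampus, and the Gabra5 probe read 159 to 183 in OPP brains and 160 to 188 in control brains. The beta2 subunit is among the most widespread in the adult brain, and the Gabrb2 probe read 172 to 222 in OPP brains and 204 to 229 in control brains. A probe not above background says only that these beads did not read over the negative controls, not that the transcript was missing.

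Of the 2 tested subunits, 0 passed an unadjusted p under 0.05, against 3.88% of all tested probes (1.77% higher and 2.1% lower in OPP brains), and 0 passed after adjustment, against 0.0131%. The groups overlapped in both tested subunits, while 9.37% of tested probes had groups that did not overlap (4.3% higher and 5.07% lower in OPP brains). The median log2 fold change of the 2 tested subunits was 0.14, against −0.00186 over 5809 tested genes. In 3 against 3 brains the standard error had a median of 0.119 over tested probes, which is not a detection limit. Differences larger than that also went uncalled, as in Gabra3, whose log2 fold change of 0.22 had an unadjusted p of 0.192 by limma.

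Beside these 7 subunits, 8 other subunit genes of the family were examined. Gabrd, the delta subunit of receptors that carry tonic inhibition, was the only one of the 8 that was tested. Its scaled intensity was 783, 612 and 565 in OPP brains 1, 2 and 3, against 769, 643 and 612 in control brains 1, 2 and 3. The groups overlapped, and the log2 fold change was −0.05 with a standard error of 0.146 and an adjusted p of 0.996 by limma. Gabra6, the alpha6 subunit of cerebellar granule cells, was not above background in any brain, and neither were Gabre, Gabrg3, Gabrp, Gabrq, Gabrr1 and Gabrr2.

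Genes that make, move and anchor the receptor's transmitter and its subunits were counted from lists. Of 9 genes of GABA synthesis, transport and breakdown, 5 were tested, of which 1 was lower in OPP brains and 0 higher by an unadjusted p of 0.05. Of all tested probes, 2.1% were lower in OPP brains by that threshold. On each gene's brightest tested probe the fold change was below 0 in all 5, with a median of −0.18, and in 2944 of the 5809 tested genes. The fold change was also below 0 in 6 of 6 tested astrocyte markers, with a median of −0.13, and in 6 of 6 meningeal and fibroblast markers, with a median of −0.24, a list that shares Slc6a13, a GABA transporter, with this one. Their part in the values of the GABA genes was not tested. Slc32a1, the transporter that loads GABA into vesicles, was the lower one. It read 7300, 6946 and 5762 in OPP brains 1, 2 and 3, against 8008, 8150 and 8648 in control brains 1, 2 and 3. The OPP brains all lay below the control brains, as in 5.07% of all tested probes. The log2 fold change was −0.32, with a standard error of 0.116, an unadjusted p of 0.0227 and an adjusted p of 0.988 by limma. The unadjusted p was 0.0790 without OPP brain 3 and 0.0746 without control brain 3. Gad1, an enzyme that makes GABA, averaged 7782 ± 794 in OPP brains and 8044 ± 629 in control brains (SD, n = 3 each), a log2 fold change of −0.05 with a standard error of 0.115 on its brightest probe. Another tested Gad1 probe had a log2 fold change of 0.0017 with a standard error of 0.163. Gad2, the other such enzyme, was not above background in any brain.

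Of 25 genes of anchoring, assembly and trafficking, 16 were tested, of which 2 were higher in OPP brains and 0 lower by the same threshold, with a median of 0.03. Of all tested probes, 1.77% were higher in OPP brains by that threshold. Shisa7, an auxiliary protein of GABA-A receptors, read 718, 695 and 774 in OPP brains 1, 2 and 3, against 512, 678 and 601 in control brains 1, 2 and 3. Dmd, which encodes dystrophin, a protein also found at inhibitory synapses, read 598, 546 and 613 in OPP brains 1, 2 and 3, against 509, 436 and 530 in control brains 1, 2 and 3. In both genes the OPP brains all lay above the control brains, as in 4.3% of all tested probes. The log2 fold change was 0.30 with a standard error of 0.123 for Shisa7 and 0.25 with a standard error of 0.112 for Dmd, and the adjusted p of each was 0.988 by limma. The unadjusted p of Shisa7, 0.0390, lay between 0.0560 and 0.157 when any brain but control brain 2 was left out, and that of Dmd, 0.0488, between 0.0638 and 0.152 without OPP brain 1 or 3 or control brain 1 or 2. Under other scalings, models and weights the unadjusted p reached 0.104 for Slc32a1, 0.0787 for Shisa7 and 0.135 for Dmd. Gphn, the gephyrin scaffold of inhibitory synapses, averaged 858 ± 102 in OPP brains and 978 ± 157 in control brains (SD, n = 3 each), a log2 fold change of −0.18 with a standard error of 0.142 and an adjusted p of 0.988 by limma.

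**Figure D2:**
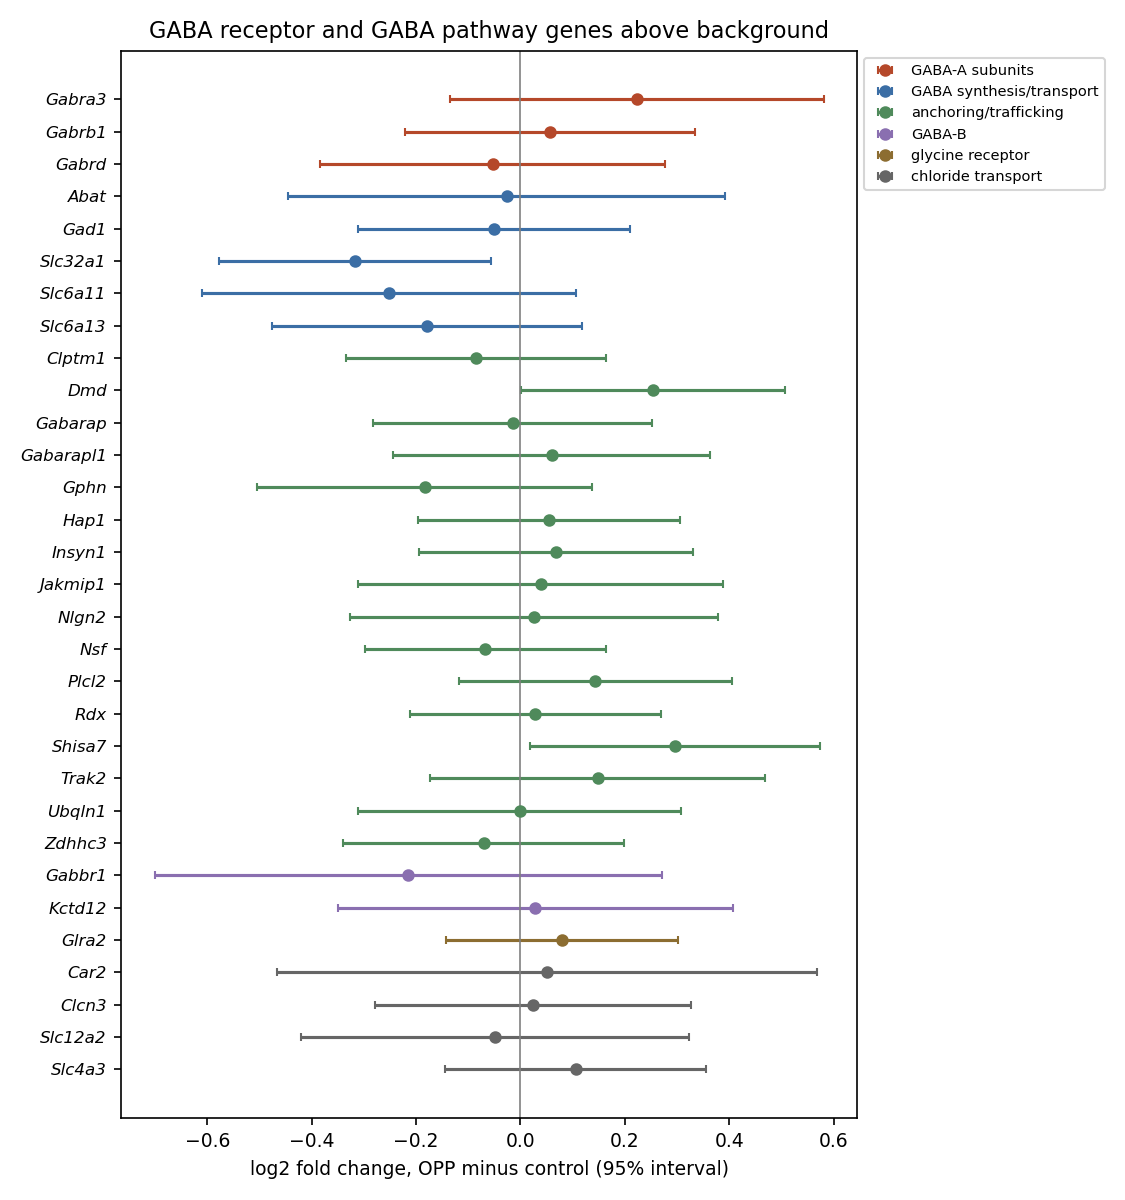
Log2 fold change, OPP minus control, with its 95% interval for every tested GABA-A subunit and GABA pathway gene, coloured by list. The interval of Slc32a1 lies below 0 and those of Shisa7 and Dmd lie above 0, while those of Gabra3, Gabrb1 and Gabrd span 0.

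The remaining lists held no gene at an unadjusted p under 0.05. The metabotropic GABA-B receptor list had 2 tested genes of 6 with a median of −0.09, the glycine receptor list 1 of 5 at 0.08, and the neuronal chloride transport list 4 of 8 with a median of 0.04.

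Markers of brain regions varied between brains. Cortex and hippocampus markers averaged 10.51 to 10.78 in OPP brains and 10.17 to 10.59 in control brains on the log2 scale. The fold change was above 0 in 9 of 11 tested genes. Of the 11, 3 were brighter and 0 dimmer in OPP brains by limma's unadjusted threshold of 0.05. For all tested probes the share brighter by it was 1.77%. The 3, picked out by their values, were Rprm, Mef2c and Nrgn, with unadjusted p of 0.0015, 0.0044 and 0.012 by limma. Their log2 fold changes were 0.54, 0.41 and 0.67, each with an adjusted p of 0.988. Striatum markers averaged 9.67 to 10.35 in OPP brains and 9.16 to 10.14 in control brains, with 9 of 9 above 0. Cerebellum markers averaged 10.36 to 10.82 in OPP brains and 9.94 to 11.75 in control brains, with 0 of 4 above 0. Thalamus and hindbrain markers averaged 8.75 to 9.75 in OPP brains and 9.50 to 10.22 in control brains, with a fold change above 0 in 0 of 7 and a median of −0.20. Among them were Hoxa5 and Hoxb5, named here after their values were seen, and Hoxb5 was the 1 tested probe that passed after adjustment. Both were above background in 0 OPP brains and 3 control brains. They passed the filter through the control brains alone, so they could count only as lower. They also enter the OPP averages with readings not above background. Markers of GABAergic interneurons, a list that includes Slc32a1 and Gad1, had a median log2 fold change of −0.01 over 9 tested genes. The fold change was above 0 in 4 and below 0 in 5, from −0.48 for Reln to 0.32 for Cck. The part of all these markers in the values of Gabra3, Gabrb1 and Slc32a1 was not tested. In bulk RNA, fewer cells of a type and less RNA per cell cannot be told apart.

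**Figure D3:**
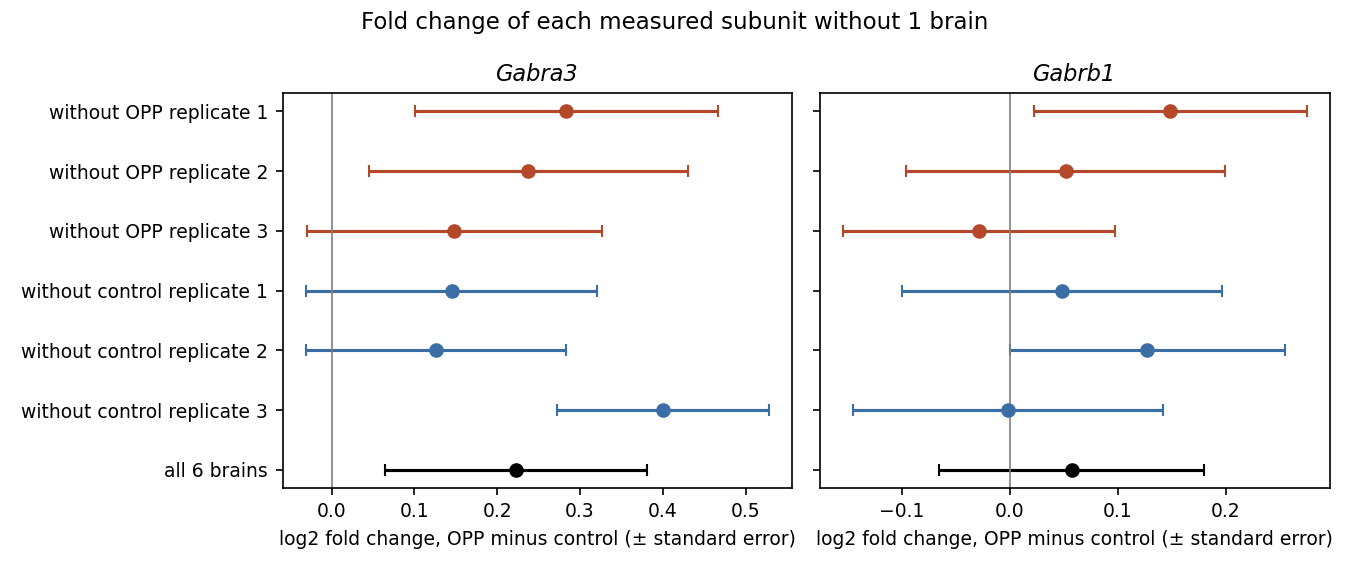
Log2 fold change, OPP minus control, with its standard error for Gabra3 and Gabrb1 when each brain was left out in turn and with all 6 brains. Gabra3 ran between 0.13 and 0.40 and Gabrb1 between −0.03 and 0.15.

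Across the 6 brains, the mean centred log2 profile of Gabra3 and Gabrb1 was highest in OPP brain 3, at 0.23, and lowest in control brain 1, at −0.16. The genes whose profiles lay nearest to it were Slc35f1, Gpr176, Ulk2, Entr1 and Rab6b, with root mean square log2 differences of 0.0271 to 0.0423 over 6 brains. The subunits went opposite ways in control brains 2 and 3. Centred Gabra3 was −0.31 and centred Gabrb1 0.11 in control brain 2, against 0.25 and −0.14 in control brain 3. The mean profile therefore does not stand for either subunit alone.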

How the data were processed

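RNA from 6 brains, 3 of OPP mice and 3 of control mice, was read on Illumina arrays. Per the methods, RNA samples of highest integrity were chosen and outliers removed by clustering before deposit. The deposited table holds, for each probe, an intensity that the authors exported from BeadStudio 1.5.1.3 without normalization, and a detection p-value per the file headers. A second deposited table of intensity values was background-subtracted and scaled by the authors, and served as an alternative.

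Intensities were scaled by a rank-invariant factor against the mean control array (probes in the 50 to 90 percentile range that moved by under 5% of ranks), floored at 10 and taken to log2. A probe was tested if its mean detection level exceeded 0.99 in a group, which left 7611 of 24048 probes. Of all probes, 19398 carried 1 gene symbol and 4650 none. Groups were compared with limma 3.58.1 in R 4.3.3 and Benjamini-Hochberg adjustment, checked on simulated data. Lists used each gene's brightest tested probe. All 7 members were named, as were Gad1, Gad2, Gphn, Gabra6 and Gabrd, and the 5 genes nearest in profile. Genes with an unadjusted p under 0.05 by limma were named in the subunit, GABA, glycine receptor and chloride transport lists. In the marker lists, not every such gene was named. Some genes that the rule names are not reported here. The members and lists were chosen with earlier results of these data known. The labels give separate samples per group but no cage, so p-values measure the spread between these samples. The methods house 5 mice per cage and count 5 per group, which matches 1 cage per group. Cage and treatment then cannot be told apart. Precision is limited by 3 arrays per group.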

Additional observations from a re-analysis of the deposited data

How the results depend on the processing

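Under 16 alternatives for each result, the number of subunit probes at an unadjusted p under 0.05 was 0 in 15 and ran between 0 and 1 when brains were left out, the 1 being Gabra3 without control brain 3. The median of the tested subunits stayed above 0, from 0.0121 without a filter, which adds the probes not above background, to 0.268 on the values processed by the authors. Leaving out brains gave 0.126 to 0.400 for Gabra3 and −0.0284 to 0.148 for Gabrb1, which was −0.00160 without control brain 3. Of all probes, 135 were higher and 160 lower, so 45.8% of calls were higher. Without scaling, 71 were lower and 67.4% of calls were higher. Without a filter, 482 were higher and 499 lower, and with array weights 276 were higher and 474 lower (36.8% higher). Leaving out brains gave 81 to 298 higher, the least without control brain 1 and the most without control brain 2, and 111 to 514 lower, the least without OPP brain 3 and the most without control brain 2. The share of higher calls was 36.7% without control brain 2 and 56.6% without OPP brain 2. Adjusted calls numbered 0 to 7. The cause was not tested. For pathway genes the alternatives were added after seeing the data. Without scaling, Gabrd was 0.00513 and Gad1 0.00804, and leaving out brains gave −0.190 to 0.0471 for Gabrd (0.0444 without OPP brain 3) and −0.0963 to 0.0376 for Gad1 (0.0158 without control brain 1). Same-numbered brains correlated at −0.272, 0.052 and 0.171 in their deviations, and differently numbered ones between −0.308 and 0.291. With 3 brains per group these values cannot tell whether the numbers pair the brains. With the replicate number as a block, 99 probes were higher and 140 lower, 0 subunit probes were called, and the log2 fold change was 0.223 for Gabra3 and 0.057 for Gabrb1. A slide block was not run because the slide was not given, and averaging the probes of a gene was not run because each subunit had 1 probe. Signal over background limited the comparison to 2 of 7 subunits.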

Other observations

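One glycine receptor probe, chosen after its values were seen, had groups that did not overlap. Glrb, the beta subunit of glycine receptors, read 283, 265 and 327 in OPP brains 1, 2 and 3, against 225, 197 and 255 in control brains 1, 2 and 3. It was above background in 2 OPP brains and 0 control brains, and it was not tested. Because OPP brain 2 was not above background either, no bound on the fold change is given. A second Glrb probe was above background in 0 OPP brains and 0 control brains.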
